A study of Mus musculus with 6 samples.

Results

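The 10 genes described here encode proteins of the cell surface and secreted proteins that are used to mark liver progenitor cells: Spp1, Cd24a, Prom1, Cd44, Afp, Tnfrsf12a, Gpc3, Icam1, Ncam1 and Mdk. They were taken by symbol from the count tables, and all 10 were present in all 6 tables, among 20573 gene symbols that the tables share. Adult liver holds 2 epithelial lineages, hepatocytes and the biliary cells that line the bile ducts. In injury, or in culture with growth factors, cells of either lineage can take on features of fetal liver precursors, and such cells are recognised by surface antigens shared with bile duct epithelium (CD24, CD133, CD44, NCAM), by the secreted matrix protein osteopontin and by fetal proteins such as alpha-fetoprotein and glypican 3.

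Polyadenylated RNA of mouse liver progenitor-like cells (LPCs) was sequenced in 3 groups of 2 libraries, all from C57BL/6 mice that the labels give as 6 to 8 weeks old and all cultured in Transition and Expansion Medium (TEM). Bec_LPCs were grown from pieces of intrahepatic bile duct of wild-type mice, plated in matrigel, passaged 1 to 2 times and sorted by flow cytometry as Epcam+ cells. Hep_LPCs came from hepatocytes of ROSA26tdTomato reporter mice given AAV8-TBG-Cre, a virus that carries Cre under a hepatocyte promoter. NPC_LPCs came from the non-parenchymal cells, those other than hepatocytes, of AlbCreERT/R26GFP mice, in which an inducible Cre is driven by the albumin promoter. The growth protocol gives an age of 8 weeks for the mice of Hep_LPCs and NPC_LPCs. Whether the replicates of a group were separate animals or cultures is not stated in the labels, and the p-values below speak of the spread among these 6 samples alone, part of which may be technical.

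Total counts were 17575998 to 22985844 reads per library, and a floor of 3 reads was 0.127 to 0.178 CPM (read counts scaled to a common library size). CPM were computed on library sizes scaled by TMM, a factor that corrects for differences in RNA composition. Hepatocyte markers summed to 2.08 to 20.0 CPM per library, with Cyp2e1, Tat and Pck1 at 0 in every library, and cholangiocyte markers, led by Krt19, summed to 467 to 1766 CPM. Stellate cell and fibroblast markers summed to 194 and 228 CPM in Bec_LPCs, against 15.5 and 10.1 CPM in Hep_LPCs and 6.06 and 18.6 CPM in NPC_LPCs. In Bec_LPCs, Acta2 was at 77.6 and 94.0 CPM, Col1a1 at 63.7 and 76.9, Col1a2 at 22.75 and 29.0, and Col3a1 at 15.6 and 15.2. Pdgfrb and Des were also highest there, whereas Dcn, Pdgfra and Reln were not. Lrat, a marker of stellate cells, was at 0 in all libraries. Whether stellate cells or fibroblasts were present was not tested. Endothelial markers reached at most 9.86 CPM, markers of lymphocytes and natural killer cells at most 1.84 CPM, and those of neural and muscle cells at most 11.9 CPM. Mesothelial markers, almost all from Msln, ranged over the libraries from 213 to 866 CPM. In bulk RNA, fewer cells of a type and less RNA per cell cannot be told apart. The Bec_LPCs tables also differ from the others in the rows they hold. Source tissue, genotype, culture steps, sort and counting therefore cannot be told apart in comparisons with Bec_LPCs. Between Hep_LPCs and NPC_LPCs, source cells, genotype and the virus given to the mice of Hep_LPCs cannot be told apart either.

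The start regions of 3 members are shown: Spp1 with the highest mean level in each group, Cd44 with the smallest adjusted p and Prom1 with the widest gap between replicates. In the main fits Spp1 and Prom1 were called in no comparison, and Cd24a, called beside Cd44, had no matched window. Each line is a RefSeq window on GRCm38.p6, 250 bases before to 50 after an annotated start, read 5′ to 3′ along the gene. Capitals mark matches to the 6 motifs searched on both strands. The AP-1 site was searched as TGANTCA and the motif of the TEAD factors as GGAATG. The GC box was searched as GGGCGG, the TATA box with the letters TATAAA, the CAAT box as the shorter word CCAAT, and NF-kB with its usual motif. The windows lie at chr5:104434861-104435160 on the plus strand (Spp1), chr5:44101687-44101986 on the minus strand (Prom1) and chr2:102901616-102901915 on the minus strand (Cd44).
Spp1: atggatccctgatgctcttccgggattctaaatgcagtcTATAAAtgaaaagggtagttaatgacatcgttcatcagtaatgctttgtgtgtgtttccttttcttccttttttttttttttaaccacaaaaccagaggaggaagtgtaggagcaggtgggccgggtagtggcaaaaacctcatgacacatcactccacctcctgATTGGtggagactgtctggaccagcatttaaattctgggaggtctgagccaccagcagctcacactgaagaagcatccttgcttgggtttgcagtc
Prom1: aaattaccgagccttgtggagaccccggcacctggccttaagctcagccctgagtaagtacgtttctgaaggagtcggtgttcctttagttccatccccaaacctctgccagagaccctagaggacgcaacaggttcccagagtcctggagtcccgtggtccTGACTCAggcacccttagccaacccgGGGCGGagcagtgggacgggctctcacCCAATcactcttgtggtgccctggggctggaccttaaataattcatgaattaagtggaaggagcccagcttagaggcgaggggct
Cd44: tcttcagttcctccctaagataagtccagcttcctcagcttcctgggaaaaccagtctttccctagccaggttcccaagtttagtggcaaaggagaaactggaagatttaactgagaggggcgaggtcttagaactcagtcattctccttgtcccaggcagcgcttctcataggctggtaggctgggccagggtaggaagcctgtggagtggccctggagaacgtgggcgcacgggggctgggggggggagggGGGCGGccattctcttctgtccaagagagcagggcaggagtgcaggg

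The Spp1 window held the TATA box letters, which begin 218 bases before its GENCODE start, and, on the opposite strand, the CAAT box. The Prom1 window held an AP-1 match, TGACTCA, with a GC box and a CAAT box closer to the start of that window. All of these Prom1 matches lie downstream of the GENCODE start of Prom1. The Cd44 window held a GC box, and no matches overlapped in these windows. Over 32851 mouse promoter windows of this length, 7.81% held the AP-1 letters, 14.7% the TEAD letters, 4.51% the NF-kB motif, 35.7% a GC box, 13.6% a TATA box and 37.4% a CAAT box. Windows were matched for 7 of the 10 members (9 windows), and none of them held the NF-kB or the TEAD letters. The NF-kB search took only exact matches to a single consensus that begins with GGG. The letters TGGAAATTCC in the Icam1 window, which depart from it at the first base, were therefore not counted. Tnfrsf12a and Gpc3 had several GC boxes each, and Afp had a TATA box that begins 30 bases before its GENCODE start. Cd24a, Ncam1 and Mdk were not matched. A match describes the letters and is not evidence of binding.

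Among the secreted members, osteopontin was by far the most abundant. Spp1 (chr5:104435118-104441050, plus strand) encodes osteopontin, a phosphoprotein of the matrix that binds integrins and CD44 and is made by bile duct epithelium. It was at 3114 and 2419 CPM in Bec_LPCs, 3187 and 953 CPM in Hep_LPCs, and 9410 and 4314 CPM in NPC_LPCs. Both NPC_LPCs libraries were above all others, whereas the libraries of Bec_LPCs and Hep_LPCs overlapped, since 1 Hep_LPCs library was the highest of those 4 and the other the lowest. The group means were 2767 ± 492, 2069.8 ± 1580.1 and 6862 ± 3604 CPM (SD, n = 2 each) in Bec_LPCs, Hep_LPCs and NPC_LPCs. Spp1 stood at rank 2 and 6 of all genes by CPM in NPC_LPCs, at 7 and 13 in Bec_LPCs, and at 10 and 104 in Hep_LPCs. Of its exonic length, 18.75% is shared with Gm42793, an unclassified gene on the same strand.

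The fetal and growth factor members were low. Afp (chr5:90490737-90508907, plus strand), the alpha-fetoprotein of fetal liver, had 120 and 138 reads in Bec_LPCs, 72 and 81 in Hep_LPCs, and 8 and 146 in NPC_LPCs. In CPM these were 5.06 and 5.92, 4.21 and 4.81, and 0.462 and 7.42, so that the NPC_LPCs libraries held both the lowest and the highest value. Mdk (chr2:91929805-91932297, minus strand), midkine, a heparin-binding growth factor, had 5 and 22 reads in Bec_LPCs, 7 and 14 in Hep_LPCs, and 5 and 10 in NPC_LPCs, and all 3 groups overlapped below 1 CPM. Gpc3 (chrX:52272426-52613950, minus strand), glypican 3, a membrane-anchored proteoglycan of fetal liver and hepatocellular carcinoma, had 0 reads in both Bec_LPCs libraries, 1 read in each Hep_LPCs library and 0 in both NPC_LPCs libraries. All 6 values are under the floor of 3 reads, so no difference in Gpc3 was detectable at this depth.

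Among the surface members, Cd44 differed most clearly between the groups. Cd44 (chr2:102811141-102901665, minus strand), the receptor for hyaluronan, was at 1484 and 1464 CPM in Bec_LPCs, 469.53 and 581 CPM in Hep_LPCs, and 1777 and 1716 CPM in NPC_LPCs. No library of 1 group entered the range of another, and the Hep_LPCs libraries were far below the rest. Cd24a (chr10:43578284-43584265, plus strand), a small glycoprotein on a lipid anchor that is used to isolate biliary and progenitor cells, was highest in the group where Cd44 was lowest, with 694 and 612 CPM in Bec_LPCs, 1042 and 1388 CPM in Hep_LPCs, and 1065 and 701 CPM in NPC_LPCs. The Bec_LPCs libraries were the lowest, and those of Hep_LPCs and NPC_LPCs overlapped. The ratio of Cd44 to Cd24a within a library, both in CPM, was 2.14 and 2.39 in Bec_LPCs, 0.451 and 0.418 in Hep_LPCs, and 1.67 and 2.45 in NPC_LPCs. Hep_LPCs were therefore the group in which Cd24a reads outnumbered Cd44 reads in both libraries.

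Prom1 and Tnfrsf12a were highest in Bec_LPCs. Prom1 (chr5:43993620-44102032, minus strand), prominin 1 or CD133, a protein of membrane protrusions that marks many stem and progenitor cells, had 2902 and 2308 reads in Bec_LPCs, 188 and 313 in Hep_LPCs, and 371 and 14 in NPC_LPCs. In CPM these were 122 and 98.9, 11.004 and 18.6, and 21.4 and 0.712. Each Bec_LPCs library was above all the others, while the NPC_LPCs libraries lay on either side of both Hep_LPCs libraries. Tnfrsf12a (chr17:23675445-23677468, minus strand) encodes Fn14, the receptor for TWEAK, a cytokine that drives progenitor expansion in injured liver. It was at 237 and 252 CPM in Bec_LPCs, 89.0 and 156 CPM in Hep_LPCs, and 70.2 and 125 CPM in NPC_LPCs, again with Bec_LPCs above and the other groups overlapping. Prom1 shares 5.909% of its exonic length with the antisense gene Gm16401.

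The adhesion molecules Icam1 and Ncam1 had opposite orders. Icam1 (chr9:21015985-21028817, plus strand), a ligand of leukocyte integrins, was at 12.1 and 10.2 CPM in Bec_LPCs, 13.1 and 14.1 CPM in Hep_LPCs, and 5.60 and 1.47 CPM in NPC_LPCs, with NPC_LPCs apart below. Ncam1 (chr9:49502136-49798925, minus strand), the neural cell adhesion molecule, which is also found on reactive bile ductules, was at 57.0 and 63.8 CPM in Bec_LPCs, 46.6 and 42.1 CPM in Hep_LPCs, and 89.9 and 128 CPM in NPC_LPCs, with NPC_LPCs apart above. For both genes no 2 groups overlapped. Antisense genes share 11.72% of the exonic length of Icam1 (Gm47079) and 4.813% of that of Ncam1 (Gm11149), and for the counting no strand setting is known from the sources used here.

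**Figure D1:**
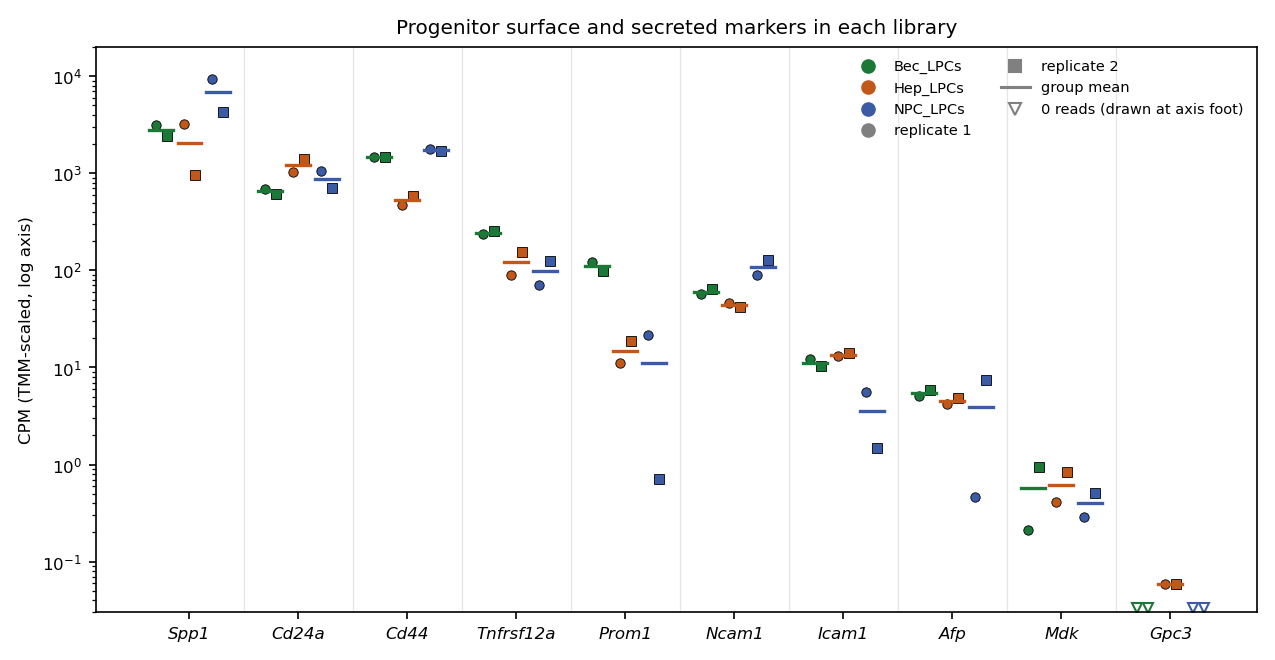
Level of each member in each library, in TMM-scaled CPM on a log axis, with circles for replicate 1, squares for replicate 2 and lines for group means (n = 2). Cd44 is lowest in both Hep_LPCs libraries, Prom1 is highest in both Bec_LPCs libraries, and the NPC_LPCs libraries lie far apart for Prom1 (21.4 and 0.712 CPM) and Afp (0.462 and 7.42 CPM).

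Per kilobase of exon (CPM divided by the union exonic length in GENCODE M21), levels can be set side by side between genes, as far as the length fits the transcripts present. Spp1 led in every group, at a mean of 1679 CPM per kb in Bec_LPCs, 1256 in Hep_LPCs and 4164 in NPC_LPCs. Cd24a followed at 253, 471 and 342.28, and Cd44 at 218, 77.5 and 258 CPM per kb in the same groups. Tnfrsf12a, a short transcript, was at 127, 63.3 and 50.5. Prom1 was at 15.4, 2.06 and 1.54, Ncam1 at 6.97, 5.12 and 12.6, and Icam1 at 2.56, 3.11 and 0.811. Afp stayed between 1.17 and 1.63, and Mdk between 0.301 and 0.468 CPM per kb. On this scale Cd24a was over Cd44 in all 3 group means, although Cd44 had more reads than Cd24a in Bec_LPCs and NPC_LPCs. Some orders between genes depended on the length used. In the FPKM that the authors deposited for Hep_LPCs and NPC_LPCs, Cd24a was again over Cd44, but Tnfrsf12a, at 96.6 and 172 FPKM in Hep_LPCs, was above Cd44, at 42.4 and 55.2 FPKM. Icam1, at 3.74 and 4.15 FPKM in Hep_LPCs, was likewise above Ncam1, at 1.69 and 1.77 FPKM, the reverse of their order per union exonic length.

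The 10 members summed to 5726 and 4927.2 CPM in Bec_LPCs, 4862.9 and 3157.4 CPM in Hep_LPCs, and 12440 and 6994.5 CPM in NPC_LPCs. Spp1 made up 54.4% and 49.1% of this sum in Bec_LPCs, 65.5% and 30.2% in Hep_LPCs, and 75.6% and 61.7% in NPC_LPCs, so the sum largely follows Spp1. Cd44 made up 25.9% and 29.7% in Bec_LPCs, 9.66% and 18.4% in Hep_LPCs, and 14.3% and 24.5% in NPC_LPCs. The share of Cd24a was 12.1% and 12.4% in Bec_LPCs, 21.4% and 44.0% in Hep_LPCs, and 8.56% and 10.03% in NPC_LPCs.

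**Figure D2:**
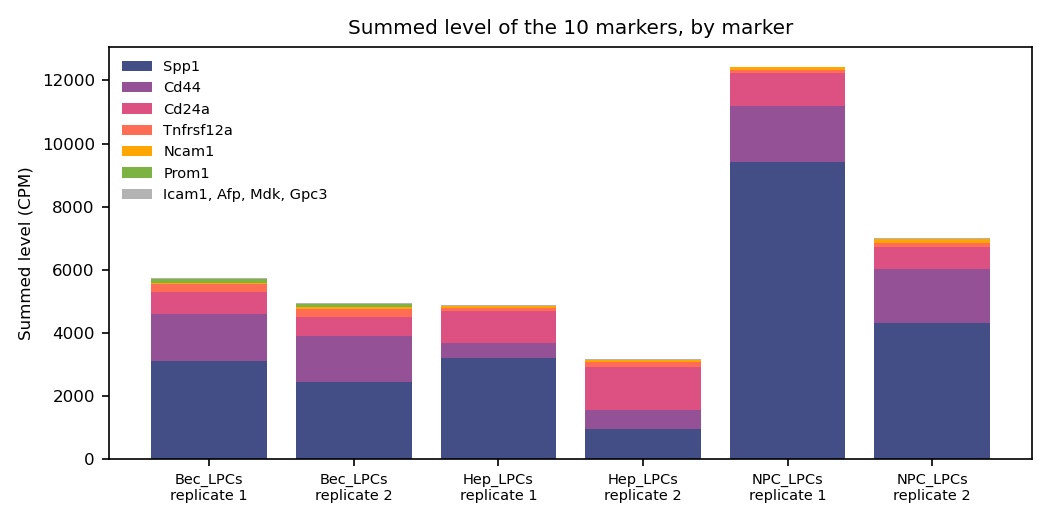
Summed level of the 10 members in each library (CPM, linear axis from 0), divided by member. The NPC_LPCs libraries have the highest sums (12440 and 6994.5 CPM), most of each from Spp1 (75.6% and 61.7%), and Cd24a takes its largest share, 44.0%, in Hep_LPCs replicate 2.

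The spread between replicates differed widely among members. In NPC_LPCs the higher Prom1 library was 30.1 times the lower, a ratio exceeded by 0.497% of the 12472 genes past the filter on low counts, where the median ratio was 1.28 and the 95th percentile 4.44. The corresponding ratio was 16.1 for Afp, exceeded by 1.03% of genes, 3.80 for Icam1 and 2.18 for Spp1. The direction was not shared: replicate 1 was higher for Spp1, Cd24a, Prom1, Cd44 and Icam1, and replicate 2 for Afp, Tnfrsf12a, Ncam1 and Mdk. The listed macrophage markers summed to 248 CPM in NPC_LPCs replicate 1 and 74.9 CPM in replicate 2. Most of each sum came from Cd14 (161 and 52.7 CPM) and Cd68 (83.9 and 20.9 CPM). Csf1r was at 1.85 and 0.813 CPM and Lyz2 at 0.635 and 0 CPM in these libraries. Adgre1, Ptprc and Marco were under 1 CPM in all libraries, and Clec4f was at 0 in all. Krt7, a biliary keratin, was at 1.501 and 17.7 CPM in the same replicates. The part of these differences in the member values was not tested.

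Cd44 was the steadiest member in Bec_LPCs and NPC_LPCs, with ratios between replicates of 1.01 in Bec_LPCs, 1.24 in Hep_LPCs and 1.04 in NPC_LPCs. In Hep_LPCs the widest ratio among members was that of Spp1, 3.35, exceeded by 5.56% of 12384 genes, against a median of 1.34. Bec_LPCs replicates were closer to each other, with a median ratio over 12753 genes of 1.07, and the wide ratio of 4.47 for Mdk rests on 5 and 22 reads.

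**Figure D3:**
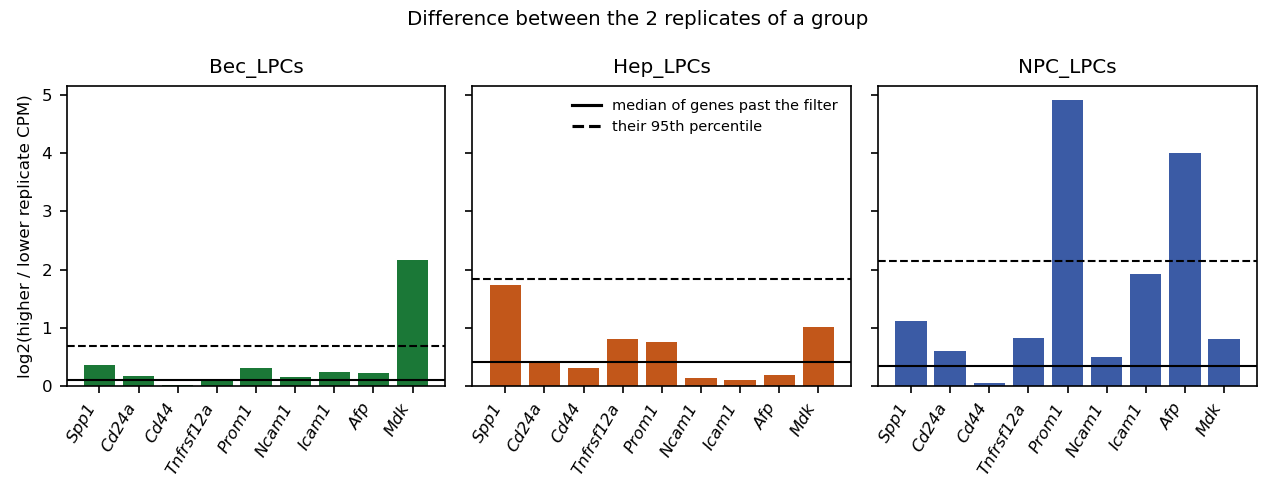
Log2 of the higher over the lower replicate, in CPM, for the 9 members past the filter on low counts, by group; the solid line is the median and the dashed line the 95th percentile of all genes past the filter. Prom1 and Afp exceed the dashed line in NPC_LPCs and Mdk does in Bec_LPCs, and Cd44 stays at or below the solid line in each group.

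Hep_LPCs were first compared with NPC_LPCs, the comparison that the growth protocol names. Cd44, Spp1 and Ncam1 had lower values in Hep_LPCs than in NPC_LPCs, and Icam1 higher values, without overlap of the libraries, but no member passed an adjusted p of 0.05. Of the 10 members, 8 passed the filter on low counts in this fit of 4 libraries; Gpc3 and Mdk did not. By edgeR's quasi-likelihood test with Benjamini-Hochberg adjustment 0 of these 8 were called, against 0.795% of all 12331 genes tested (0.349% higher and 0.446% lower), and 4 had an unadjusted p under 0.05, against 22.2% of all genes. Libraries did not overlap for 1 of the 8 higher and 3 lower in Hep_LPCs, against 28.9% and 27.7% of all genes (56.6% in either direction). Cd44 came nearest to a call, with a log2 fold change of -1.75 ± 0.26 (SE) and an adjusted p of 0.0567. Ncam1 was at -1.32 ± 0.28 (adjusted p = 0.0854), Spp1 at -1.74 ± 0.67 (adjusted p = 0.212) and Icam1 at 1.93 ± 0.68 (adjusted p = 0.181). Cd24a (0.44 ± 0.31), Prom1 (0.42 ± 1.33), Afp (0.16 ± 1.13) and Tnfrsf12a (0.30 ± 0.41) had intervals of 2 SE that include 0.

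The absence of calls depended on the fit for Cd44, Ncam1 and Spp1. Cd44 was called in Hep_LPCs against NPC_LPCs when all 6 libraries shared 1 estimate of the spread (adjusted p = 0.0136), without a filter on low counts (0.0149), with a filter at 10 CPM (0.0382) and by DESeq2 (6.675e-09). Its log2 fold change kept its sign in each fit of this comparison. Ncam1 was called with 6 libraries (adjusted p = 0.0291), without the filter (0.0428) and by DESeq2 (0.00207), and Spp1 by DESeq2 (0.0291). Prom1 turned with the NPC_LPCs library used, with a log2 fold change of 4.35 without NPC_LPCs replicate 1 and -0.54 without replicate 2. In such a fit NPC_LPCs are a single library that is assumed to vary like the libraries of the other group, so the gap between the NPC_LPCs replicates is left out and the adjusted p-values (0.0376 and 0.650) do not carry it.

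Bec_LPCs were then compared with NPC_LPCs in the fit of all 6 libraries. Prom1, Tnfrsf12a and Icam1 had higher values in Bec_LPCs than in NPC_LPCs, and Spp1, Ncam1, Cd44 and Cd24a lower ones, yet none was called. Of 9 members tested 0 were called by edgeR's quasi-likelihood test, against 11.3% of 12868 genes (4.88% higher and 6.44% lower), and 4 had an unadjusted p under 0.05, against 31.5% of all genes. The libraries did not overlap for 3 members higher and 4 lower in Bec_LPCs, against 37.0% and 33.0% of all genes (70.0% in either direction). Prom1 was at 3.33 ± 1.25 (log2 fold change ± SE, adjusted p = 0.135), Icam1 at 1.66 ± 0.60 (adjusted p = 0.125) and Tnfrsf12a at 1.32 ± 0.37 (adjusted p = 0.0724). Ncam1 was at -0.85 ± 0.22 (adjusted p = 0.0603), Spp1 at -1.31 ± 0.63 (adjusted p = 0.216) and Cd24a at -0.44 ± 0.27 (adjusted p = 0.312). Cd44, at -0.24 ± 0.18 (adjusted p = 0.388), was close in these 2 groups, and Afp (0.47 ± 1.04) and Mdk (0.52 ± 0.93) had wide errors.

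Prom1 was higher in Bec_LPCs than in either NPC_LPCs library, by a log2 fold change of 7.22 without NPC_LPCs replicate 1 and 2.37 without replicate 2, and limma-voom called it with both (4.90, adjusted p = 0.0422). Afp, by contrast, was at -0.48 without NPC_LPCs replicate 1 and at 3.55 without replicate 2. With 1 NPC_LPCs library, which is assumed to vary like the other groups, Prom1 (adjusted p = 0.0152 and 0.0434), Afp without replicate 2 (0.0315), and Icam1 (2.87, 0.0248) and Ncam1 (-1.13, 0.0407) without replicate 1 fell under an adjusted p of 0.05. Those values do not include the gap between the NPC_LPCs replicates. DESeq2 called Tnfrsf12a (adjusted p = 0.00458), Ncam1 (0.0084) and Icam1 (0.0417).

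Bec_LPCs against Hep_LPCs was the comparison with called members: Cd44 was higher and Cd24a lower in Bec_LPCs. Cd44 averaged 1474 ± 14.3 CPM in Bec_LPCs and 525 ± 78.5 CPM in Hep_LPCs (SD, n = 2 each), a log2 fold change of 1.49 ± 0.18 (SE) with an adjusted p of 0.00467 by edgeR's quasi-likelihood test. Cd24a averaged 653 ± 57.5 CPM in Bec_LPCs and 1215 ± 245 CPM in Hep_LPCs, a log2 fold change of -0.90 ± 0.27 with an adjusted p of 0.0480. These are 1 of 9 members called higher, against 16.1% of 12868 genes, and 1 of 9 lower, against 17.2% (33.4% in either direction), and nothing about the members is read from so few calls. The members' median absolute log2 fold change was 0.45, against 0.72 for all genes. In the other comparisons the members' value was the larger. It was 0.88 against 0.48 in Hep_LPCs against NPC_LPCs, and 0.85 against 0.49 in Bec_LPCs against NPC_LPCs. No member was called in either of these comparisons, and the gap between the medians was not tested.

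The Cd44 call did not hold with 1 Bec_LPCs library, at an adjusted p of 0.0573 without replicate 1 and 0.0543 without replicate 2, though its log2 fold change stayed at 1.479 and 1.504. The Cd24a call was lost without any 1 of the 4 libraries, at adjusted p-values of 0.188 and 0.252 without Bec_LPCs replicates 1 and 2 and 0.0582 and 0.138 without Hep_LPCs replicates 1 and 2, and also with library size alone as the scaling (-0.72, adjusted p = 0.0868). With library size alone the median of all genes tested was 0.21 on the log2 scale, against 0.03 with TMM.

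Of the members without a call, Prom1 had the largest difference between Bec_LPCs and Hep_LPCs, at 2.90 ± 1.22 (log2 fold change ± SE, adjusted p = 0.115), and its libraries did not overlap. It was called when only the 4 libraries of the 2 groups were fitted (adjusted p = 0.00752), a fit that leaves out the wide NPC_LPCs values, and by limma-voom (0.0356). Tnfrsf12a was at 1.00 ± 0.37 (adjusted p = 0.0827; 0.0251 by DESeq2), Ncam1 at 0.45 ± 0.22 (adjusted p = 0.158) and Spp1 at 0.42 ± 0.62 (adjusted p = 0.624). Icam1 (-0.28 ± 0.58), Afp (0.28 ± 1.04) and Mdk (-0.10 ± 0.91) had intervals of 2 SE that include 0. Libraries did not overlap for 5 members higher in Bec_LPCs (Prom1, Cd44, Afp, Tnfrsf12a and Ncam1) and 2 lower (Cd24a and Icam1), against 40.8% and 36.8% of all genes (77.6% in either direction). Over all 3 groups at once, 3 of 9 members (Cd44, Icam1 and Ncam1) had no overlap between any of them, against 33.7% of all genes.

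**Figure D4:**
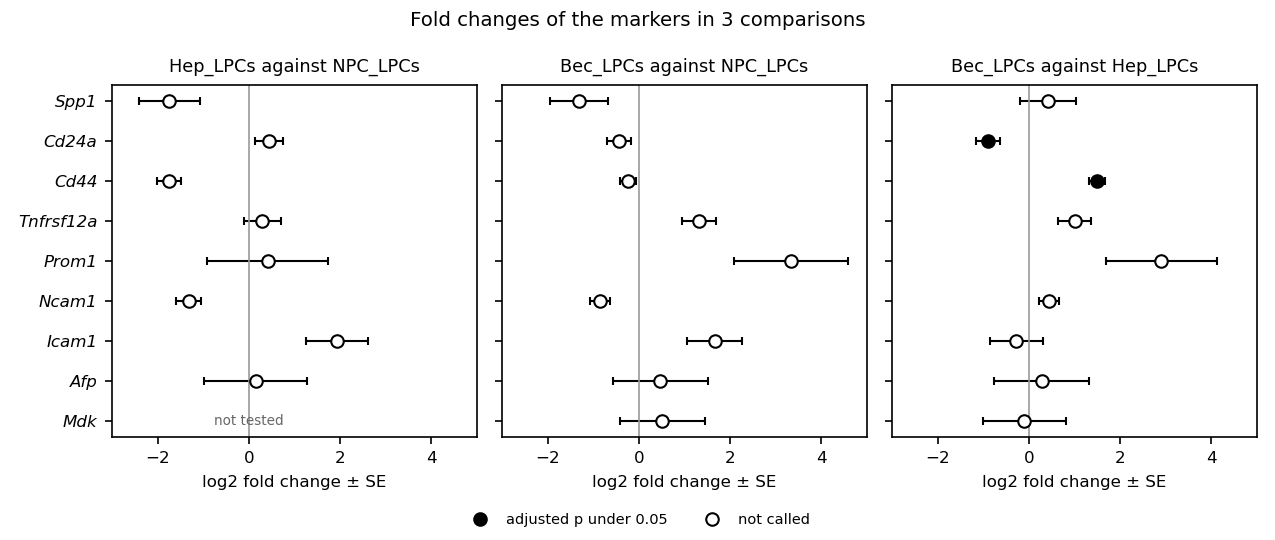
Log2 fold change ± SE of each tested member in the 3 comparisons, with filled points for an adjusted p under 0.05 by edgeR's quasi-likelihood test. The filled points are Cd44 (1.49) and Cd24a (-0.90) in Bec_LPCs against Hep_LPCs, and Prom1 has the widest bars in each comparison.

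Receptors, ligands and regulators of the members were read from 10 lists of 113 genes in all. Of these, 36 of the 90 tested (40.0%) were called in at least 1 comparison, against 35.5% of all 13040 genes tested. The 36 include Epcam, the marker of the Bec_LPCs sort, and Has1 and Esrp1, which passed the filter on low counts through Bec_LPCs alone. The lists were chosen with earlier results of these data known, so the shares are a description and no test. The counts below stand against 0.795% of all genes called in Hep_LPCs against NPC_LPCs, 11.3% in Bec_LPCs against NPC_LPCs and 33.4% in Bec_LPCs against Hep_LPCs. The first share is from a fit of 4 libraries and the others from 6, so they are not on the same footing. With 6 libraries, 1274 of 12868 genes were called in Hep_LPCs against NPC_LPCs. That fit shares an estimate of the spread that takes in the closer Bec_LPCs replicates. Calls in the 2 comparisons with Bec_LPCs share the Bec_LPCs libraries. Without either Bec_LPCs replicate most partner calls in these comparisons were lost, and calls over all genes fell as well. Partner calls were also lost with both Bec_LPCs libraries kept. Against NPC_LPCs, 9 of 16 were lost with the replicate number as a block and 5 of 14 among genes counted alike. Against Hep_LPCs these were 4 of 33 and 2 of 30. Some calls against NPC_LPCs were lost without either NPC_LPCs replicate. None of the 3 partner calls in Hep_LPCs against NPC_LPCs held without either Hep_LPCs replicate. No called partner changed sign in any fit. The median log2 fold change of a list ran from -1.18 (glypicans, syndecans and partners) to 1.38 (other progenitor markers) in Hep_LPCs against NPC_LPCs, from -0.30 (TWEAK signalling) to 0.76 (midkine family and receptors) in Bec_LPCs against NPC_LPCs, and from -1.02 (albumin family and AFP regulators) to 1.16 (midkine family and receptors) in Bec_LPCs against Hep_LPCs. All genes tested had medians of -0.0030, 0.010 and 0.031 in the same order of comparisons.

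Osteopontin is bound by integrins of the alpha v and beta 1 chains. Of 8 receptor genes tested, 3 were higher and 1 lower in Bec_LPCs than in Hep_LPCs, and none was called in the other comparisons. Itgav averaged 409 ± 1.48 CPM in Bec_LPCs, 158 ± 32.1 in Hep_LPCs and 267 ± 41.6 in NPC_LPCs (log2 fold change 1.38 ± 0.21 against Hep_LPCs, adjusted p = 0.00866). Itgb1 (1.58 ± 0.46, adjusted p = 0.0456) and Itga9 (3.80 ± 0.70, adjusted p = 0.0133) were also higher. Itgb6, whose chain pairs with alpha v in epithelium, was lower, with 10.5 and 12.9 CPM in Bec_LPCs, against 74.0 and 138 CPM in Hep_LPCs (-3.18 ± 0.53, adjusted p = 0.0107). Itgb3 was at 10.6 ± 0.478, 11.05 ± 0.769 and 19.1 ± 8.61 CPM in Bec_LPCs, Hep_LPCs and NPC_LPCs. The list's median log2 fold change was 0.74 for Bec_LPCs against Hep_LPCs, against 0.03 for all genes, and -0.79 for Hep_LPCs against NPC_LPCs.

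The genes of the synthases of hyaluronan, the ligand of CD44, were at or near the floor in Hep_LPCs. Has2, a hyaluronan synthase, had 109 and 171 reads in Bec_LPCs, 5 and 3 in Hep_LPCs, and 47 and 113 in NPC_LPCs. Has3, another synthase, had 202 and 166 reads in Bec_LPCs, 2 and 4 in Hep_LPCs, and 27 and 21 in NPC_LPCs. Has1 had 26 and 47 reads in Bec_LPCs and 0 in the other 4 libraries. Of 14 listed genes tested, 5 were called higher in Bec_LPCs than in Hep_LPCs (Has2, Has3, Has1, Cemip and Esrp1) and 3 lower (Hmmr, Ezr and Esrp2), and 3 were higher than in NPC_LPCs (Has3, Has1 and Esrp1). Has1 and Esrp1 passed the filter on low counts through Bec_LPCs alone, so the direction of their calls was fixed beforehand.

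Esrp1, a splicing factor that promotes the epithelial variant exons of CD44, had 459 and 559 reads in Bec_LPCs, 1 and 2 in Hep_LPCs, and 0 and 1 in NPC_LPCs. Its call held in both comparisons under every fit run. By edgeR's quasi-likelihood test the adjusted p was 0.00182 against Hep_LPCs and 0.00278 against NPC_LPCs. In fits that use the filter on low counts, the direction of this call was fixed by that filter. The gene counts do not separate CD44 isoforms. Hmmr, an intracellular hyaluronan-binding protein of dividing cells, averaged 38.7 ± 2.38 CPM in Bec_LPCs against 152 ± 46.0 CPM in Hep_LPCs (adjusted p = 0.00789). Ezr, ezrin, which ties CD44 to actin, was at 768 ± 12.9 CPM in Bec_LPCs against 1694 ± 328 CPM in Hep_LPCs (-1.14 ± 0.21, adjusted p = 0.0131). No gene of this list was called in Hep_LPCs against NPC_LPCs.

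Tnfsf12, the gene of TWEAK, was lower where its receptor gene Tnfrsf12a was highest. It was at 3.64 ± 0.170 CPM in Bec_LPCs, 13.2 ± 0.585 in Hep_LPCs and 11.2 ± 1.24 in NPC_LPCs, with an adjusted p of 0.00762 for Bec_LPCs against Hep_LPCs and 0.0238 against NPC_LPCs. Tnfsf12 overlaps another protein-coding gene, Tnfsfm13, beyond the limit set for genes counted alike, so this difference is uncertain. Of 11 genes tested, 2 were lower in Bec_LPCs than in Hep_LPCs (Tnfsf12 and Rela), 3 lower than in NPC_LPCs (Tnfsf12, Birc3 and Rela), and none was called higher. Rela, an NF-kB subunit, was at 84.8 ± 0.0828 CPM in Bec_LPCs, 172 ± 34.5 in Hep_LPCs and 172 ± 36.6 in NPC_LPCs. Birc3, an inhibitor of apoptosis and NF-kB target, was at 14.8 ± 2.84 CPM in Bec_LPCs against 33.8 ± 1.51 CPM in NPC_LPCs (adjusted p = 0.0478). Traf2, the adaptor bound by Fn14, was at 21.02 ± 1.42, 24.98 ± 4.95 and 23.9 ± 0.158 CPM in Bec_LPCs, Hep_LPCs and NPC_LPCs.

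Several other cell surface proteoglycans were far above the floor, unlike Gpc3. Gpc1, glypican 1, was called in all 3 comparisons, at 50.03 ± 1.58 CPM in Bec_LPCs, 23.0 ± 4.01 in Hep_LPCs and 87.0 ± 4.96 in NPC_LPCs. Its adjusted p was 0.0472 for Hep_LPCs against NPC_LPCs, 0.0470 for Bec_LPCs against NPC_LPCs and 0.0103 for Bec_LPCs against Hep_LPCs. The call in Hep_LPCs against NPC_LPCs was lost in 9 of 15 alternative fits (adjusted p between 0.0548 and 0.19), among them library size alone, limma-voom and the replicate number as a block, and that in Bec_LPCs against NPC_LPCs in 8 of 15 (between 0.0516 and 0.368). That in Bec_LPCs against Hep_LPCs was lost in 2 of 15 (0.0914 and 0.098). Gpc4 (1.86 ± 0.22, adjusted p = 0.00419), Sdc3 (2.66 ± 0.63, adjusted p = 0.0256) and Sdc4 (1.83 ± 0.19, adjusted p = 0.00339) were higher in Bec_LPCs than in Hep_LPCs, making 4 of 10 tested with Gpc1. Sdc4, a syndecan, averaged 376 ± 8.95, 105 ± 9.47 and 197 ± 35.2 CPM in Bec_LPCs, Hep_LPCs and NPC_LPCs, and was also higher in Bec_LPCs than in NPC_LPCs (adjusted p = 0.0356). Sdc1 was at 427 ± 30.0, 614 ± 42.4 and 574 ± 82.1 CPM, with no call. Of 10 tested, Gpc1 alone was called in Hep_LPCs against NPC_LPCs, and Gpc1 and Sdc4 in Bec_LPCs against NPC_LPCs.

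Several midkine receptor genes were far above the floor, unlike Mdk itself. Ptn, the relative of midkine, had 3 reads in 1 Bec_LPCs library and 0 in the other 5. Lrp1, an endocytic receptor of midkine, was at 150 ± 14.7 CPM in Bec_LPCs, 53.8 ± 16.2 in Hep_LPCs and 126 ± 106 in NPC_LPCs, with no call. Ncl, nucleolin, which also serves ribosome production, was lower in Bec_LPCs, at 1011 and 1158 CPM against 5832 and 2790.1 CPM in Hep_LPCs (-1.99 ± 0.37, adjusted p = 0.0138). Notch2 was higher in Bec_LPCs than in Hep_LPCs (0.84 ± 0.20, adjusted p = 0.0261), and Itga6 higher in Bec_LPCs than in NPC_LPCs (1.27 ± 0.25, adjusted p = 0.0339). These were the calls among 6 genes tested in each Bec_LPCs comparison, and Itga6 lies outside the genes counted alike.

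For the adhesion members, the ICAM list gave 0 calls among 4 tested genes in each comparison. Vcam1, the adhesion molecule most often named with ICAM-1, was at 428 ± 49.1, 304 ± 100.2 and 455 ± 349 CPM in Bec_LPCs, Hep_LPCs and NPC_LPCs, and Itgb2, the leukocyte integrin chain that binds ICAM-1, stayed at 1.72 to 2.35 CPM as group means. St8sia4, the enzyme that adds polysialic acid to NCAM, had 0 and 2 reads in Bec_LPCs, 208 and 15 in Hep_LPCs, and 187 and 33 in NPC_LPCs, and was called lower in Bec_LPCs than in Hep_LPCs (adjusted p = 0.0409). Fgfr1, a receptor that NCAM binds, was at 54.8 ± 0.385 CPM in Bec_LPCs, 8.08 ± 1.49 in Hep_LPCs and 21.7 ± 3.32 in NPC_LPCs, called higher in Bec_LPCs against Hep_LPCs (adjusted p = 0.00216) and NPC_LPCs (0.0238). Cdh2, N-cadherin, was higher in Bec_LPCs than in Hep_LPCs (0.55 ± 0.16, adjusted p = 0.0432). These were the calls among the 7 genes of the NCAM list tested in the Bec_LPCs comparisons, and none of 6 was called in Hep_LPCs against NPC_LPCs.

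Around Afp, the neighbouring family gene Gc, which encodes the vitamin D binding protein, differed in all 3 comparisons while Afp did not pass. Gc was at 166 and 155 CPM in Bec_LPCs, 38.3 and 25.7 CPM in Hep_LPCs, and 643 and 646 CPM in NPC_LPCs. Its log2 fold change was -4.35 ± 0.32 for Hep_LPCs against NPC_LPCs (adjusted p = 0.0170), -2.01 ± 0.23 for Bec_LPCs against NPC_LPCs (0.0092) and 2.32 ± 0.23 for Bec_LPCs against Hep_LPCs (0.00303). Alb, albumin, had 23 and 10 reads in Bec_LPCs, 41 and 2 in Hep_LPCs, and 2 and 3 in NPC_LPCs. Zbtb20, a repressor that silences Afp after birth, was at 248.9 ± 3.02 CPM in Bec_LPCs, 52.5 ± 20.9 in Hep_LPCs and 105 ± 17.8 in NPC_LPCs, called higher in Bec_LPCs than in Hep_LPCs (adjusted p = 0.0066). Zhx2, a second such repressor in mice, was at 23.1 ± 0.105, 51.4 ± 6.66 and 41.0 ± 1.09 CPM in Bec_LPCs, Hep_LPCs and NPC_LPCs and was called lower in Bec_LPCs against both.

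Cebpa, a transcription factor of hepatocytes on that list, was highest in Hep_LPCs, at 7.38 ± 0.00845 CPM in Bec_LPCs, 27.2 ± 5.78 in Hep_LPCs and 1.19 ± 0.527 in NPC_LPCs. It was called higher in Hep_LPCs than in NPC_LPCs (adjusted p = 0.0325), higher in Bec_LPCs than in NPC_LPCs (0.0184) and lower in Bec_LPCs than in Hep_LPCs (0.0147). Of the list, 1 gene was higher (Cebpa) and 1 lower (Gc) of 9 tested in Hep_LPCs against NPC_LPCs, 1 higher (Cebpa) and 2 lower (Zhx2 and Gc) of 10 in Bec_LPCs against NPC_LPCs, and 2 higher and 5 lower of 10 in Bec_LPCs against Hep_LPCs.

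Prom2, the closest relative of Prom1, and Ttyh1 were at or near the floor. Prom2 had at most 1 read in any library, and Ttyh1, which binds prominin 1, had 0 to 18 reads. Siglecg, a lectin that binds CD24 on leukocytes, averaged 3.23 ± 0.0960 CPM in Bec_LPCs against 12.7 ± 5.75 CPM in Hep_LPCs (adjusted p = 0.0441), the only call of that list, and it lies outside the genes counted alike. Among other progenitor markers, 2 of 14 tested were called higher in Bec_LPCs than in Hep_LPCs, Sox4 and Epcam, of which Epcam was the marker of the sort and so is no finding. Against NPC_LPCs, 3 of 14 were called, Epcam, Krt7 and Sox4, all higher. Sox4, a transcription factor of bile duct development, averaged 642 ± 3.53, 213 ± 25.6 and 263 ± 9.17 CPM in Bec_LPCs, Hep_LPCs and NPC_LPCs. Sox9 (148 ± 4.59, 118 ± 4.63 and 176 ± 131 CPM) and Krt19 (472 and 441, 1511 and 932, and 117 and 282 CPM) gave no call.

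**Figure D5:**
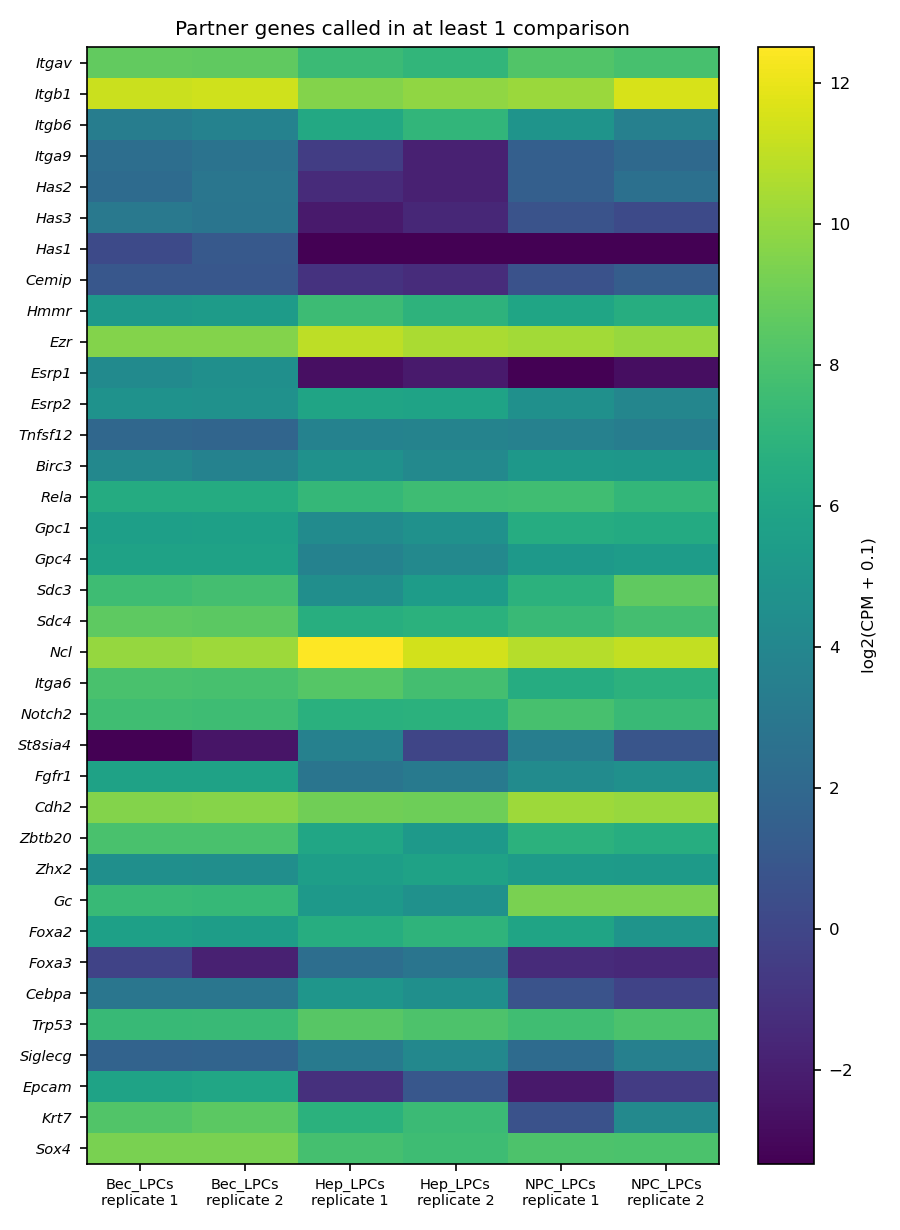
Level of the 36 listed partner genes called in at least 1 comparison, as log2(CPM + 0.1) by colour, in each library. Has2 and Has3 are dark in the Hep_LPCs columns, and Esrp1 and Has1 in both the Hep_LPCs and the NPC_LPCs columns. Gc is brightest in the NPC_LPCs columns, and Itgb6 and Cebpa are brightest in the Hep_LPCs columns.

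Genes whose level followed a member most closely over the 6 libraries were ranked by Pearson's r of log2 CPM among 9771 genes. Libraries of a group share their source, so r over 6 libraries describes group differences and replicate deviations together. Cd44 had the largest number of close followers, 205 genes with r over 0.95, led by Chd8 (0.999) and Serinc3 (0.998). Spp1 was followed by Ggps1 (0.998) and Arid5b (0.997), Cd24a by Nxf1 and Gm2a (0.996 each), and Prom1 by Fyttd1 (0.989). For Tnfrsf12a these were L3hypdh (0.994) and Jpt1 (0.992), for Icam1 Meis2 (0.993) and Cdh1 (0.991), for Ncam1 Nectin2 (0.991) and Rtp4 (0.984), and for Afp Crtap (0.997) and Hecw1 (0.989). Mdk had no gene above 0.95, and reached 0.820 with Stard13.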

How the data were processed

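Per the labels' protocols, 6 libraries were made from polyadenylated RNA with a stranded kit and read from both ends. The submitters' processing notes name the build mm10 and, with no role or version, DESeq, HTSeq, Cufflinks, HISAT2 and Trimmomatic; settings and annotation are unknown from the sources used here. The authors deposited whole-number counts per gene symbol for every library, and FPKM beside them for Hep_LPCs and NPC_LPCs. The FPKM were used only for alternative fits and to compare the order of genes within a library. Rows without a name (14 per Bec_LPCs table, 44 and 41 reads, 0.000191% and 0.000181% of the counts) were left out. Older symbols were updated with RefSeq synonyms (16 for Bec_LPCs and 843 for each other library), and shared symbols held 95.3% to 99.4% of the counts.

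Members and partner lists were chosen with earlier results of these data known. The named partners were the direct counterparts on each list and up to 3 further called genes per comparison by smallest adjusted p; Cemip and Esrp2, outside this rule, are named to complete a count. A few listed genes, closest-pattern genes and 1 motif are not reported here, and the counts leave out those listed genes. Hep_LPCs against NPC_LPCs was fitted on their 4 libraries and both Bec_LPCs comparisons on all 6, with edgeR 4.0.16 (filterByExpr, TMM, robust quasi-likelihood test, two-sided; limma 3.58.1, R 4.3.3) and Benjamini-Hochberg adjustment over every gene tested; a call is an adjusted p under 0.05. Errors of fold changes are the log2 fold change over the square root of the F statistic. The script was tested on simulated data. Gene positions, overlaps and lengths are from GENCODE M21 (bedtools 2.31.1), and near-identical copies (95% identity over 200 bases) were sought with minimap2 2.31-r1302. Genes counted alike share at most 25% of their exonic length with another protein-coding gene and have no such copy, and all 10 members met this. As alternatives the fits were repeated with library size alone, DESeq2 size factors, no filter, at least 10 CPM in 2 libraries, DESeq2 1.42.0, limma-voom, the replicate number as a block, genes counted alike, other sets of libraries, each library left out and limma on log2(FPKM + 1) or log2(FPKM + 0.1). The number of reads limits the precision of low genes, and a floor of 3 reads covers counting error only.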

Additional observations from a re-analysis of the deposited data

How the results depend on the processing

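Most member fold changes kept their direction and their side of the threshold: of those recomputed under the alternatives, 341 did, 25 passed the threshold only in the alternative, 8 no longer passed and 11 turned, and the cause was not tested. A group left with 1 library was assumed to vary like the others. In Hep_LPCs against NPC_LPCs, with a library left out, Afp ranged from -0.74 (without NPC_LPCs replicate 1) to 3.27, Tnfrsf12a from -0.16 (without Hep_LPCs replicate 2; -0.05 without NPC_LPCs replicate 1) to 0.80, and Prom1 from -0.54 (without NPC_LPCs replicate 2; -0.0078 without Hep_LPCs replicate 2) to 4.35. In Bec_LPCs against NPC_LPCs, Mdk ranged from -0.90 (without Bec_LPCs replicate 2) to 1.20 and Afp from -0.48 (without NPC_LPCs replicate 1) to 3.55. In Bec_LPCs against Hep_LPCs, Mdk was at 0.069 with library size alone and ranged from -1.52 to 0.60 (without Bec_LPCs replicate 1; 0.49 without Hep_LPCs replicate 2) with a library left out, and Spp1 from -0.20 (without Hep_LPCs replicate 2) to 1.54. In Hep_LPCs against NPC_LPCs, the 98 calls over all genes became 515 without a filter, 172 at 10 CPM, 1517 by DESeq2, 5 by limma-voom, 1274 with 6 libraries, and 10 and 59 on log2(FPKM + 1) and log2(FPKM + 0.1); each library left out gave 0 to 361, with 2062 and 2264 genes at an unadjusted p under 0.05 by edgeR where the count was 0. Members called there were 2 without a filter, 1 at 10 CPM, 3 by DESeq2, 2 with 6 libraries and 0 to 1 with a library left out. In Bec_LPCs against NPC_LPCs, the 1457 calls became 2898 by DESeq2, 817 among genes counted alike, 2492 with 4 libraries and 115 to 2363 with a library left out; members called were 3 by DESeq2, 1 by limma-voom and 0 to 3 with a library left out. In Bec_LPCs against Hep_LPCs, the 4293 calls became 491 to 4908 with a library left out, and members called were 1 with library size alone and 0 to 3 with a library left out. With library size alone, 61.3% of calls were higher in Bec_LPCs against NPC_LPCs (43.1% with TMM) and 60.9% against Hep_LPCs (48.3% with TMM).

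The replicate numbers were checked for pairing. Deviations of same-numbered samples had correlations of 0.087 (Bec_LPCs and NPC_LPCs), -0.040 (Bec_LPCs and Hep_LPCs) and -0.0087 (Hep_LPCs and NPC_LPCs). No broad shift in common was seen. With 2 libraries a group, this check cannot tell whether same-numbered samples shared a batch. With the replicate number as a block, calls over all genes were 128 in Hep_LPCs against NPC_LPCs, 770 in Bec_LPCs against NPC_LPCs and 3389 in Bec_LPCs against Hep_LPCs; 1 member was called against NPC_LPCs, Tnfrsf12a (adjusted p = 0.0419), and against Hep_LPCs Tnfrsf12a was called (0.0339) and Cd24a was not (0.0655).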
